A study of Mus musculus with 6 samples.

Results

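The miR-10 and miR-196 families are microRNAs (miRNAs) that lie inside the Hox gene clusters. They were followed in small RNA libraries from extracellular vesicles of mouse muscle. Members were taken by identifier from a table of read counts per mature miRNA locus: the 5p strands miR-10a-5p (MIMAT0000648), miR-10b-5p (MIMAT0000208), miR-196a-5p (MIMAT0000518) and miR-196b-5p (MIMAT0001081), together with the opposite-arm locus of each hairpin within 80 bases. This gave 10 of the 2110 loci of the table, 5 of them 5p loci (miR-196a has copies at Mir196a-1 and Mir196a-2) and 5 of them 3p loci. The libraries came from muscle of old mice (3 libraries) and of young mice (3 libraries). The vesicles are called exosomes, the small membrane vesicles that cells release, in the labels. The sources used here do not give strain, sex, age in months, the muscles taken or the isolation method. Nothing in the labels ties a replicate to an animal of its own, and the p-values therefore reflect how far these libraries scatter, a scatter that may be technical.

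Hox genes encode transcription factors that give cells their position along the body axis, and their order along the chromosome follows the order of the body regions in which they act. A miRNA placed between Hox genes tends to be transcribed in the same body regions as its neighbours. miR-10 lies next to Hox genes used from the neck and upper trunk backwards, and miR-196 next to genes used in the lower trunk and hindlimb, which is why the families can be read as marks of the body position of a tissue. In mouse embryos miR-196 was found in the hindlimb and not in the forelimb, and it directs cleavage of the mRNA of Hoxb8.

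In RefSeq on GRCm38.p6, the assembly also called mm10, Mir10a (chromosome 11, 96317165 to 96317274, plus strand) lies 11044 bases after Hoxb5 and 993 bases before Hoxb4, within the span of Hoxb3. Mir10b (chromosome 2, 74726070 to 74726137, plus strand) lies inside the spans of Hoxd4 and Hoxd3, and in GENCODE M21 in introns of both. The miR-196 hairpins lie further towards the posterior end of their clusters. Mir196a-1 (chromosome 11, 96265164 to 96265265, plus strand) stands between Hoxb13 and Hoxb9, 6065 bases from Hoxb9. Mir196a-2 (chromosome 15, 102973350 to 102973434, plus strand) stands between Hoxc10 and Hoxc9, and in GENCODE M21 in an intron of a long transcript of Hoxc5. Mir196b (chromosome 6, 52230081 to 52230165, minus strand) stands 1032 bases from Hoxa10 and 2711 bases from Hoxa9, and an exon covers it in 2 of 3 transcripts of Hoxa9 that span it in GENCODE M21. Mir10a and Mir196a-1 thus share the Hoxb cluster.

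The mature sequences are shown because the members of each family are nearly the same molecule, which limits how far counts can separate them. They are RefSeq sequences (GRCm38.p6), 5′ to 3′, with the seed (bases 2 to 8, the part that chiefly pairs with target mRNAs) in capitals, and miR-99b-5p, miR-100-5p and let-7b-5p are added as relatives in sequence.
miR-10a-5p: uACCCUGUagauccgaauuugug
miR-10b-5p: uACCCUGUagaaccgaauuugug
miR-99b-5p: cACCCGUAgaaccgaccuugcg
miR-100-5p: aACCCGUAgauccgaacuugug
miR-196a-5p: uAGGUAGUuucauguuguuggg
miR-196b-5p: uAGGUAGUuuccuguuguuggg
let-7b-5p: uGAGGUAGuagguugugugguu
Counted from the 5′ end, miR-10a-5p and miR-10b-5p differ at 1 of 23 positions (U12A, miR-10a base first), and miR-196a-5p and miR-196b-5p at 1 of 22 positions (A12C, miR-196a base first). A search for the seeds covered those of the 1679 mature mouse miRNAs in RefSeq that were also named among the counted loci. In that set, only the members of each family carry its seed at bases 2 to 8. The letters of the miR-196 seed, AGGUAGU, also occur 1 base further along, at bases 3 to 9, in 9 of the miRNAs searched. By name, 7 of those 9 belong to let-7.

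The copies of miR-196a give the same mature sequence from different hairpins. They are shown whole, with the mature strand in capitals, since only the flanks tell them apart.
Mir196a-1: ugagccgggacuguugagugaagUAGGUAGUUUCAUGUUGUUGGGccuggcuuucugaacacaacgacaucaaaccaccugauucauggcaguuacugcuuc
Mir196a-2: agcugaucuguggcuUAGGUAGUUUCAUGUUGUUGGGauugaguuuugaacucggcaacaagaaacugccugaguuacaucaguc
The hairpins share 0 bases directly before and 0 bases directly after the mature strand, so that a read of the exact mature sequence aligns equally well at both loci.

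The Hoxb8 site is shown as the classical target of this family. In the longest Hoxb8 3′ untranslated region of GENCODE M21 (848 bases, bases 421 to 442), the stretch with the best ungapped pairing is written below, 5′ to 3′ on the mRNA strand, with the bases opposite the seed in capitals.
Hoxb8 site: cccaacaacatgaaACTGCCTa
miR-196a-5p pairs with it at 21 of 22 positions by Watson-Crick pairs and at the other by a G:U pair, at base 5 of the miRNA. miR-196b-5p has 20 Watson-Crick pairs, the same G:U pair and a mismatch at base 12. No mRNA was measured in these libraries.

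Libraries of old muscle held 904892 to 1417733 counts and those of young muscle 1459826 to 1706396. In old replicate 1 the most abundant miRNA, miR-21a-5p, took 35.4% of the counts, while it took 49.0% and 52.9% of the remaining old libraries and 49.5% to 51.9% of the young libraries, which sets that library apart. All 6 miRNAs of the striated muscle marker list had counts, and the list took 9.91% of old replicate 1, 4.61% and 5.83% of the other old libraries, and 4.95% to 6.26% of the young ones. The sum overlapped and was mostly miR-206-3p, while 4 of the 6 markers were higher in every old than in every young library. On library totals without TMM, miR-133a-3p had 3689 to 6088 CPM in old and 2079 to 2469 CPM in young, miR-1a-3p 2356 to 3766 and 1463 to 2182, miR-499-5p 1426 to 1605 and 668 to 842, and miR-133b-3p 720.2 to 805 and 492 to 645. Red blood cell markers took 4.12% to 4.52% in old and 4.03% to 4.36% in young libraries. Both endothelial markers (miR-126a) were listed at 0, each at a locus that overlaps another, where reads were left uncounted, so that endothelium could not be judged. For miR-1a-3p, 1 of its 2 loci overlaps another as well, so its values above may leave out reads. No miR-10 or miR-196 locus overlapped another locus.

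The vesicles carried abundant miR-196 and little miR-10. Over all libraries 97045 counts fell on miR-196 5p strands and 1277 on miR-10 5p strands, a ratio of 76.0 to 1. With identical copies summed, miR-196a-5p was the 16th most abundant of 891 mature miRNAs with a count and miR-196b-5p the 49th. miR-10a-5p stood 140th and miR-10b-5p 175th. The 10 loci together held 1.17% of all counts. Levels are CPM, the count of a locus scaled to a common library total, with library sizes adjusted by TMM, a method that corrects for composition. They express a miRNA as a part of everything counted in its library, are not divided by length (22 or 23 bases here), and cannot separate fewer vesicles from a source from less miRNA per vesicle. CPM of different miRNAs are not molar amounts.

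**Figure D1:**
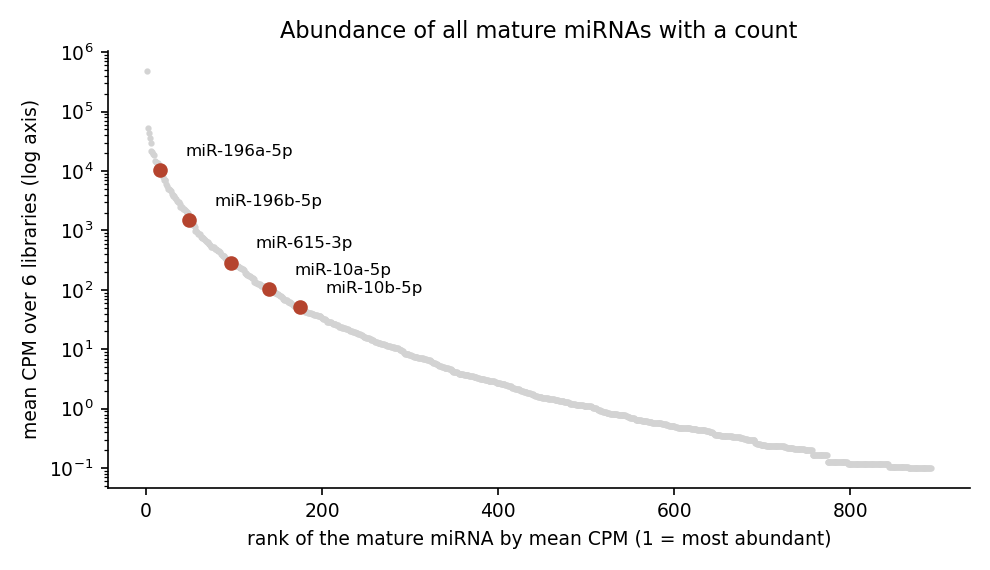
Mean CPM over the 6 libraries (log axis) of every mature miRNA with a count, against its rank, with identical copies summed. Grey points are all 891 mature miRNAs and red points the mature members and miR-615-3p, from the Hoxc cluster. Of the red points miR-196a-5p stands 16th, miR-615-3p 96th and miR-10b-5p 175th.

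miR-196a-5p, which in mice acts on Hox mRNAs and has been tied to the formation of brown fat, was the dominant member. With both loci added it had 14157, 9203 and 8505 CPM in old replicates 1 to 3, against 11182, 10792 and 8268 CPM in young replicates 1 to 3. Old replicate 1 was the highest library and young replicate 3 the lowest, and the groups overlapped. The means were 10622 ± 3081 CPM in old and 10081 ± 1582 CPM in young (SD, n = 3 each).

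miR-196b-5p, encoded in the Hoxa cluster and known from blood progenitors and leukaemia, had 1905, 1484 and 1456 CPM in old libraries, against 1318, 1479 and 1244 CPM in young libraries. Only the highest young library lay within the old range, by a small margin. Means were 1615 ± 251 CPM in old and 1347 ± 120 CPM in young (SD, n = 3 each).

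miR-10a-5p, encoded in the Hoxb cluster and known in endothelium for restraining inflammatory signalling, had 88.7, 73.8 and 82.3 CPM in old libraries, against 138, 116 and 110 CPM in young libraries. Every old library lay below every young one. These values rest on 88, 103 and 106 counts in old and on 200, 193 and 171 counts in young libraries. Means were 81.6 ± 7.51 CPM in old and 121 ± 14.8 CPM in young (SD, n = 3 each).

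miR-10b-5p, encoded in the Hoxd cluster and known from human breast cancer for acting on the mRNA of HOXD10, had 71.6, 50.1 and 39.6 CPM in old libraries, against 48.9, 50.5 and 44.3 CPM in young libraries. The young libraries all fell within the range of the old ones. Between 51 and 84 counts per library lay behind these values.

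The order of levels was miR-196a-5p, miR-196b-5p, miR-10a-5p and miR-10b-5p in 6 of 6 libraries. miR-196a-5p lay above miR-196b-5p by 6.58 times in old and 7.48 times in young means, and miR-196b-5p above miR-10a-5p by 19.8 times in old and 11.1 times in young means. The ranges of the first 3 members over all libraries did not meet. miR-10a-5p and miR-10b-5p came close, since the lowest miR-10a-5p value was 73.8 CPM and the highest miR-10b-5p value 71.6 CPM, in different libraries.

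**Figure D2:**
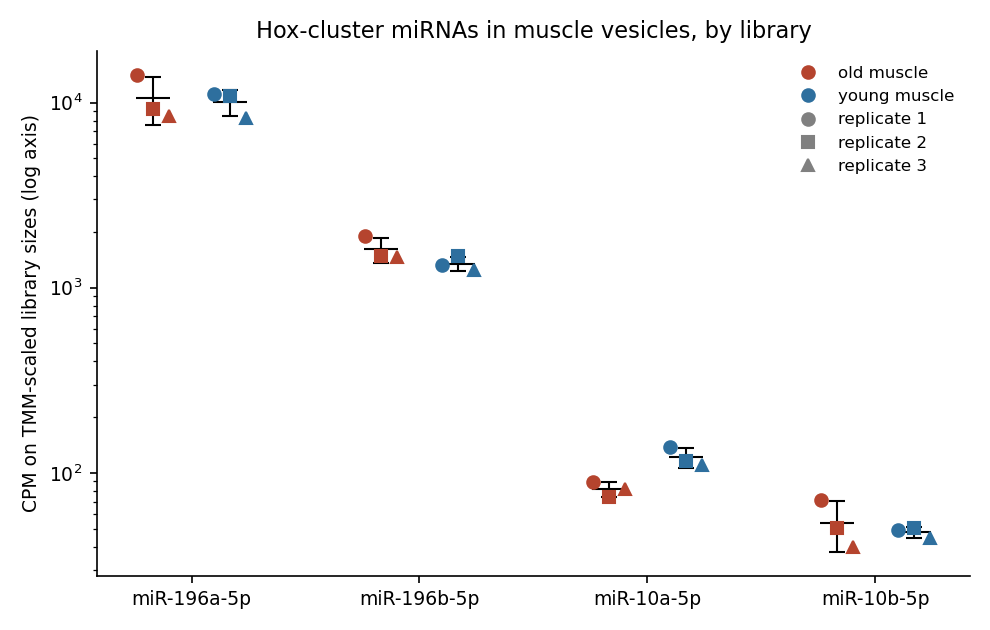
CPM on TMM-scaled library sizes (log axis) of the 4 mature members in each library, old muscle in red and young muscle in blue, with marker shapes for replicates 1 to 3 and black bars for the mean and SD (n = 3). For miR-10a-5p all old values (73.8 to 88.7) lie under all young values (110 to 138), while the groups overlap for the other members.

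The opposite arms held few counts, and none of the 5 3p loci passed the filter on low counts. Mir10b had 416 counts on its 5p arm and 0 on its 3p arm, which allows a 3p share of up to 0.721% by a floor of 3 counts (upper end of the exact 95% interval 0.883%). Mir196a-1 had 38648 and 0, which allows a share of up to 0.00776% by the same floor (0.00954% by the exact interval). Its 5p locus thus held at least 12883 times the counts of its 3p locus (floor of 3 counts over all libraries). Mir196a-2 had 46249 counts on 5p and 12 on 3p, a 3p share of 0.0259% (95% exact binomial interval 0.0134 to 0.0453). The miR-196a-5p reads, 84897 over both loci, could come from either hairpin. The values of Mir196a-1 and Mir196a-2 therefore describe loci and not the arms of a hairpin. Mir196b had 12148 and 5, a share of 0.0411% (0.0134 to 0.0960). Mir10a had the highest 3p share of the 5 hairpins, 15 counts beside 861, or 1.71% (0.961 to 2.81). As a yardstick, the less abundant arm took a median of 1.38% over 175 hairpins with both arms annotated and at least 100 counts. Of these hairpins, 39 were under 0.1%. Shares lower than those of Mir196a-2 and Mir196b were found in 30 and 31 other hairpins. The exact intervals cover counting error only.

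Read as a mark of position, miR-196 took nearly all counts of the miR-10 and miR-196 loci in every library. Its share was 99.0%, 98.8% and 98.8% in old libraries, against 98.5%, 98.7% and 98.4% in young libraries. The groups did not overlap, with a difference of 0.342 percentage points (old minus young; two-sided exact permutation p = 0.1, the smallest that 3 against 3 libraries allow, 0.25 adjusted over 5 such comparisons). As a ratio of 5p counts, miR-196 stood over miR-10 by 100.2, 86.3 and 81.7 times in old libraries, against 66.9, 73.6 and 61.8 times in young libraries. The ratio is the same measurement on another scale. Both contain the miR-10a-5p counts, as does the miR-10b-5p to miR-10a-5p ratio given below. They are therefore not results separate from the lower miR-10a-5p level in old libraries. miR-10a-5p was the only member whose own values separated the groups. The counts above leave out miR-615-3p, from the Hoxc cluster. It had a mean of 404 counts per library, beside 143.5 for miR-10a-5p and 69.3 for miR-10b-5p.

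The miR-10 and miR-196 loci together took 1.78%, 1.07% and 0.939% of the counts in old libraries, against 1.26%, 1.21% and 0.990% in young libraries. Old replicate 1, the library with the highest striated muscle share, was the highest here too, and the part of that share in the result was not tested. The groups overlapped, and the means of 1.26% ± 0.452 in old and 1.15% ± 0.145 in young (SD, n = 3 each) gave an exact permutation p of 0.9. Without old replicate 1 the difference was -0.152 percentage points, against 0.107 with it.

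Within the miR-10 pair, miR-10b-5p stood to miR-10a-5p as 0.807, 0.680 and 0.481 to 1 in old libraries, against 0.355, 0.435 and 0.404 to 1 in young libraries. Every old ratio lay above every young one, with means of 0.656 ± 0.164 in old and 0.398 ± 0.0404 in young (SD, n = 3 each; exact permutation p = 0.1, the smallest possible, 0.25 adjusted over 5 comparisons). Without old replicate 1 the difference of 0.258 was 0.182. The counts are low, and the miR-10b-5p share of the pair had exact 95% intervals of 36.8% to 52.7% in old replicate 1 and 25.2% to 40.4% in old replicate 3.

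Within the miR-196 family, miR-196b-5p made up 11.9%, 13.9% and 14.6% of the 5p counts in old libraries, against 10.5%, 12.1% and 13.1% in young libraries. The groups overlapped (exact permutation p = 0.3, 0.375 adjusted over 5 comparisons).

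The copies of miR-196a-5p were not split evenly. Mir196a-2 held 1.14, 1.20 and 1.18 times the counts of Mir196a-1 in old libraries, against 1.21, 1.19 and 1.27 times in young libraries. Mir196a-2 was thus higher in 6 of 6 libraries. Its share of the miR-196a-5p counts was 53.3% to 56.0%, with exact 95% intervals at most 1.88 points wide. The share did not separate the ages (exact permutation p = 0.2, 0.333 adjusted over 5 comparisons). Since the mature strands are identical, the counts do not give the output of either hairpin.

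**Figure D3:**
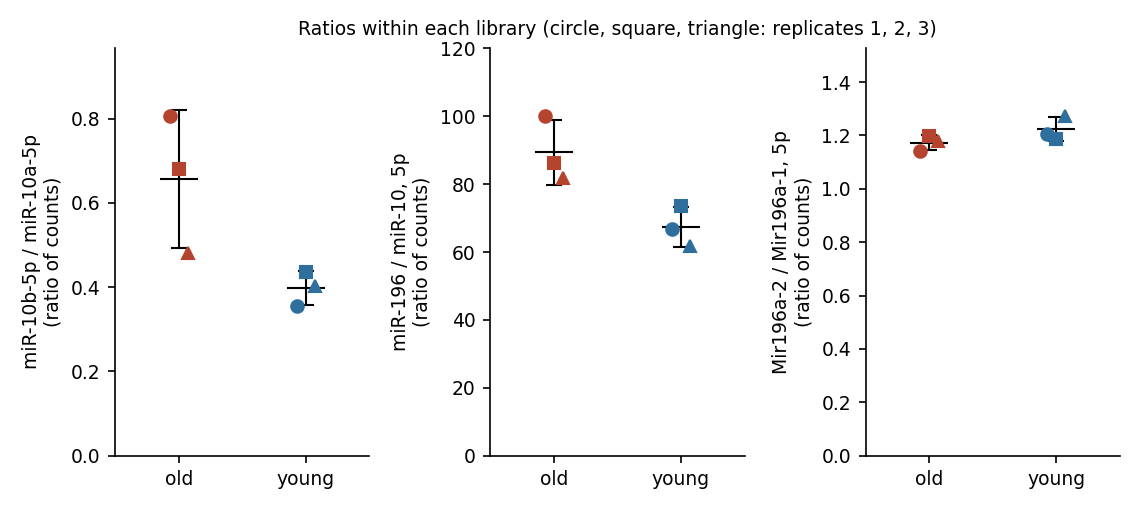
Ratios of counts within each library, old muscle left and young muscle right, with marker shapes for replicates and black bars for mean and SD (n = 3). The ratio of miR-10b-5p to miR-10a-5p (0.481 to 0.807 in old, 0.355 to 0.435 in young) and that of miR-196 to miR-10 separate the groups. Both of these ratios contain the miR-10a-5p counts. The ratio of the Mir196a copies (1.14 to 1.27 over all libraries) does not separate the groups.

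The comparison of old with young muscle asks which vesicle miRNAs differ in relative amount with age. None of the 5 member loci was called by edgeR's quasi-likelihood test with Benjamini-Hochberg adjustment over 347 tested loci, where 15 loci, or 4.32%, were called (12 higher in old, 3.46%, and 3 lower in old, 0.865%). DESeq2 called none of the 5 either. At an unadjusted p under 0.05 edgeR had 1 of the 5, miR-10a-5p, against 22.5% of all tested loci. Of the 5, 4 had positive log2 fold changes and 1 a negative one. The positive ones include both miR-196a-5p loci, which share a mature sequence. The median was 0.11, beside 0.04 over all tested loci, 47.6% of which had a negative value. With identical copies summed, none of the 4 mature members was called, beside 5.05% of 317. Old and young values were separate at 1 of the 5 loci, with old lower, which was so at 13% of all tested loci (27.1% in either direction).

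miR-10a-5p had the only negative value, a log2 fold change of -0.57 ± 0.22 (SE; 95% interval -1.03 to -0.11; old over young), or 0.672 times the young level. Its unadjusted p was 0.0174 and its adjusted p by edgeR 0.139. Over the 13 alternative settings the adjusted p ranged from 0.0531 to 0.352, and the log2 fold change from -0.70 to -0.50. The summed levels of the leukocyte list and of the smooth muscle and fibroblast list also separated the ages, as did 4 of the 6 striated muscle markers given above. The 4 leukocyte markers with a count out of 5, with miR-142a-3p at 0, took 0.0882% to 0.108% in old and 0.111% to 0.138% in young libraries; miR-142a-3p lies at a locus that overlaps another. Within that list miR-155-5p alone separated the ages, with 356 to 475 CPM in old and 634 to 861 CPM in young (library totals without TMM), and miR-223-3p, miR-150-5p and miR-142a-5p overlapped. The 4 smooth muscle and fibroblast markers, all with counts, took 3.59% to 4.36% in old and 2.81% to 3.11% in young libraries. Of these, miR-143-3p was higher in every old library (21882 to 26916 CPM in old and 13949 to 16183 CPM in young), miR-214-3p was lower in every old library (585 to 860 CPM in old and 895 to 1090 CPM in young), and miR-145a-5p and miR-199a-3p overlapped. The part of all these markers in the value of miR-10a-5p was not tested. Of the neural markers, miR-124-3p took 0.00751% to 0.0103% in old and 0.00451% to 0.00664% in young libraries, while the other, miR-9-5p, was listed at 0 at loci that overlap another, and its part was likewise not tested.

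miR-10b-5p, which differs from miR-10a-5p at 1 base, had a log2 fold change of 0.15 ± 0.27 (SE; 95% interval -0.42 to 0.73; adjusted p = 0.806 by edgeR). Without old replicate 1 it was -0.07. The interval overlaps that of miR-10a-5p (-1.03 to -0.11), and the difference between both members was compared only as the ratio above.

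miR-196b-5p had a log2 fold change of 0.26 ± 0.17 (SE; 95% interval -0.10 to 0.62; adjusted p = 0.393 by edgeR), which was 0.14 without old replicate 1 and positive in all 13 alternatives. miR-196a-5p had 0.11 ± 0.21 at Mir196a-1 (95% interval -0.33 to 0.54; adjusted p = 0.816) and 0.05 ± 0.20 at Mir196a-2 (-0.37 to 0.46; adjusted p = 0.918). With copies summed it was 0.06. Its sign turned without old replicate 1, where Mir196a-2 stood at -0.18, and without young replicate 3, where it stood at -0.07. It also turned when library totals without miR-21a-5p set the scale (-0.10), a setting that lowered the median over all tested loci by 0.11. Relative to that median the value was -0.03, against 0.01 in the original scale.

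**Figure D4:**
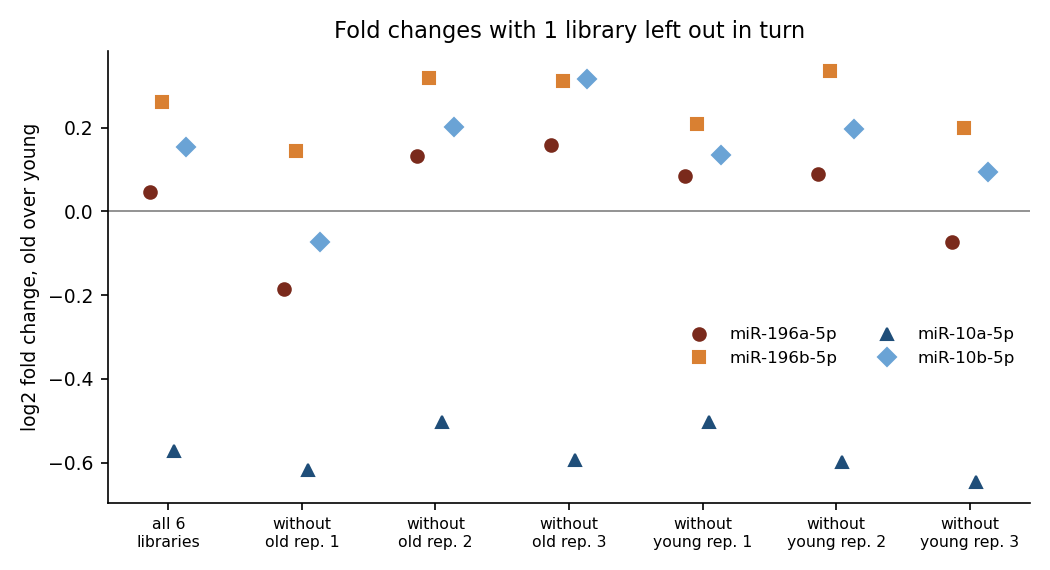
Log2 fold change, old over young, of the 4 mature members (miR-196a-5p at Mir196a-2) with all 6 libraries and with each library left out in turn. miR-10a-5p stays between -0.65 and -0.50, while miR-196a-5p moves between -0.18 and 0.16 and miR-10b-5p between -0.07 and 0.32.

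The related miRNAs were miR-615, from an intron of Hoxc5 in the Hoxc cluster, and the relatives of miR-10 in sequence, miR-99a, miR-99b, miR-100, miR-125a and miR-125b. All 8 loci passed the filter, and edgeR's test called none, beside 4.32% of all tested loci. With identical copies summed, the same test called miR-615-3p (adjusted p = 0.0462) and miR-99b-5p (adjusted p = 0.0445), beside 5.05% of 317 mature miRNAs. At an unadjusted p under 0.05 the test by locus had 2 of 8, miR-615-3p and miR-99b-5p, beside 22.5% of all tested loci. There were 2 positive and 6 negative values, with a median of -0.21 beside 0.04 over all tested loci. Both miR-125b-5p loci, copies of the same mature sequence, are among the negative ones. At 2 of the 8 loci old and young values were separate, both with old lower, beside 13% of all tested loci in that direction.

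Those loci were miR-615-3p and miR-99b-5p. miR-615-3p (chromosome 15, 103014969 to 103014990, plus strand) had 189.6, 199.8 and 258 CPM in old libraries, against 390, 355 and 302 CPM in young libraries, so that every old library lay below every young one. Its log2 fold change was -0.69 ± 0.20 (SE, adjusted p = 0.0545 by edgeR). It passed in 5 of 13 alternatives, among them DESeq2 (adjusted p = 0.0145), and its adjusted p ranged from 0.0116 to 0.217. Its sequence shares no seed with the members.
miR-615-3p: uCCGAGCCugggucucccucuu
Its opposite arm miR-615-5p had 7.01 ± 3.00 CPM in old and 9.53 ± 6.03 CPM in young libraries (SD, n = 3 each).

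miR-99b-5p, from a cluster shared with let-7e and miR-125a, had 3662, 3618 and 3981 CPM in old libraries, against 6814, 5303 and 4816 CPM in young libraries. The log2 fold change was -0.59 ± 0.17 (SE, adjusted p = 0.0545 by edgeR). miR-99b-5p passed in 5 of 13 alternatives, among them DESeq2 (adjusted p = 0.0119), and its adjusted p ranged from 0.00853 to 0.236. Its relatives miR-99a-5p and miR-100-5p had 0.10 ± 0.17 and 0.17 ± 0.16, and miR-125a-5p had -0.25 ± 0.19, all without a call.

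**Figure D5:**
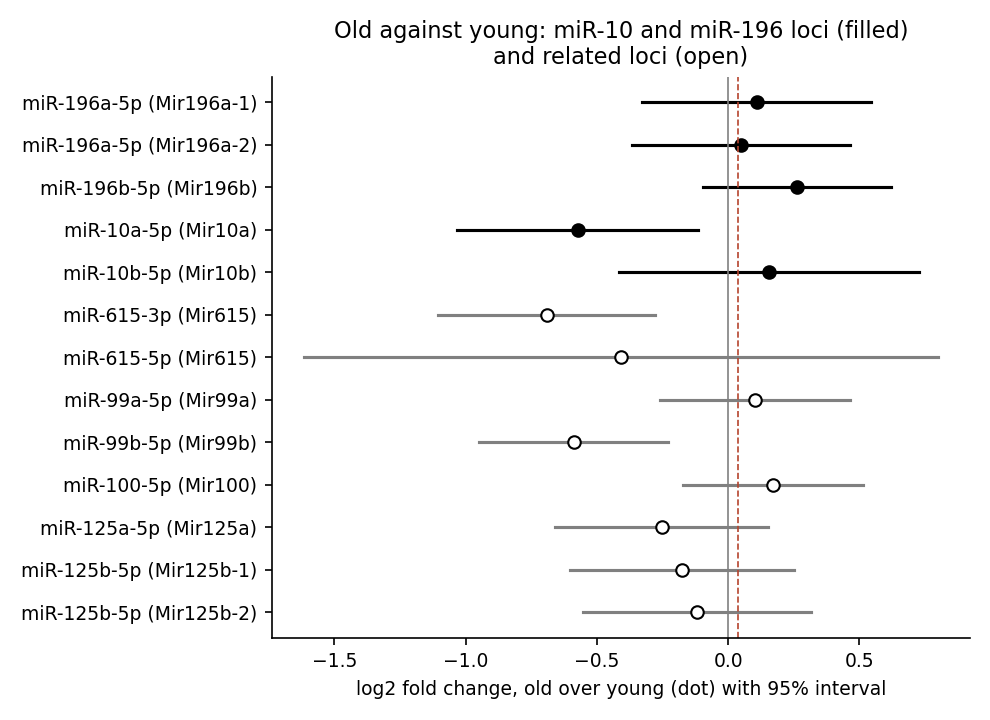
Log2 fold change, old over young, with 95% intervals from edgeR for the 5 member loci (filled) and the 8 related loci (open), where the dashed line is the median of all 347 tested loci (0.04). The intervals of miR-10a-5p, miR-615-3p and miR-99b-5p lie below 0, and no locus shown passed the adjusted threshold in this fit by locus.

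Across the 6 libraries, the miRNAs most like each member were sought by the root mean square difference of centred log2 CPM among 154 other mature miRNAs with a mean of at least 100 counts (miR-10b-5p, with fewer, was left out). The pattern of miR-10a-5p was closest to miR-7a-5p (0.0910), miR-99b-5p (0.0944) and miR-450b-3p (0.143), where the median over all was 0.378. That of miR-196a-5p was closest to miR-221-3p (0.131), let-7c-5p (0.160) and let-7b-5p (0.175), with a median of 0.368. That of miR-196b-5p was closest to miR-450a-5p (0.0607), miR-93-5p (0.0909) and miR-542-5p (0.110), with a median of 0.307. miR-196a-5p and miR-196b-5p stood 0.179 apart, and miR-10a-5p stood 0.366 from miR-196a-5p. The miR-196a-5p pattern sums its copies in the Hoxb and Hoxc clusters. These are descriptions of 6 libraries, without a test.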

How the data were processed

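Small RNA from muscle vesicles was measured in 3 old and 3 young libraries. The deposited table holds unnormalized read counts for mature miRNA loci. Per the file headers, featureCounts 2.0.6 made it, with no option for strand, multi-mapping or overlapping features. Reads were aligned with BWA to mm10, per the submitters' processing notes, while the sources used here do not give settings or trimming. Columns were matched to libraries by name. Of 2110 loci, 1734 were named by exact position in RefSeq (GRCm38.p6) and 360 by position in GENCODE M21.

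edgeR 4.0.16 (R 4.3.3) was run on the counts as deposited: filterByExpr (minimum count 10, minimum total 15), TMM and the quasi-likelihood test, with p-values adjusted over 347 loci at a threshold of 0.05. Standard errors and 95% intervals were derived from the F statistic and the coefficient without shrinkage. Shares and ratios were compared by exact permutation over libraries. DESeq2 1.42.0 was an alternative. The procedure was tested on simulated data. The named miRNAs are all member loci, the related list, and the 3 nearest in pattern to each member. Members, lists and tests were chosen with earlier results of these data known. No column of values was left out.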

Additional observations from a re-analysis of the deposited data

How the results depend on the processing

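None of the 5 member loci passed the adjusted threshold under any of the 13 alternatives run, and miR-10a-5p and miR-196b-5p kept their sign in all of them. The value of miR-196a-5p (at Mir196a-2) was -0.099 with library totals without miR-21a-5p, against 0.05, where the median of all loci shifted by -0.11, and it ran from -0.18 (without old replicate 1) to 0.16 with a library left out. For miR-10b-5p leaving out a library gave -0.073 (without old replicate 1) to 0.32, for miR-10a-5p -0.65 to -0.50 and for miR-196b-5p 0.14 to 0.33. The share of counts at the miR-10 and miR-196 loci differed by 0.107 percentage points (old minus young). The difference was -0.0842 with miR-21a-5p left out of the denominator, and -0.152 (without old replicate 1) to 0.268 with a library left out. The causes were not tested. The miR-10b-5p to miR-10a-5p ratio kept its direction (0.182 to 0.345), as did the miR-196 share (0.277 to 0.410 points). Both contain the miR-10a-5p counts.

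The count of called loci was 15 (12 higher and 3 lower in old), and 38 with library totals without miR-21a-5p (13 higher and 25 lower), 21 by DESeq2 (12 and 9), and 5 (without old replicate 2) to 45 (without old replicate 1) with a library left out. The replicate block gave 6 calls. Under it miR-10a-5p stood at -0.57 (adjusted p = 0.285). Libraries with the same number did not deviate together (r = -0.15 to 0.02), and 0 of 6 libraries correlated best with their own number, so that the number was not taken as a pairing. The 51 to 84 counts per library of miR-10b-5p limit the precision of its values. So do the 0 to 15 counts of each 3p arm, which are totals over all 6 libraries.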

Other observations

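The let-7 miRNAs and others that carry AGGUAGU at bases 3 to 9, together 9 mature miRNAs, summed to 99848 CPM in old and 97582 CPM in young libraries. Those with AGGUAGU at bases 2 to 8, miR-196a-5p and miR-196b-5p, summed to 12169 CPM in old and 11495 CPM in young libraries.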
